A study of Mus musculus with 14 samples.

Results

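The genes described here are the 32 of 55414 genes in the count table that make, move, store and export cholesterol. They were taken from a list of gene symbols set by role, and the list was chosen with earlier results of these data known. The list holds 18 genes of synthesis, 4 genes that control synthesis, 5 genes of uptake and movement within the cell, 1 gene of storage and 4 genes of efflux, and all 32 were found in the table. Messenger RNA was sequenced in granulosa cells (GCs), the somatic cells that line the antral follicle and surround the oocyte, from female mice at 12 weeks of age kept on chow diet. The db/db group (4 libraries) was homozygous for the Leprdb allele on the B6.BKS(D)-Leprdb/J strain and so lacked the long isoform of the leptin receptor, and its lean littermates formed the CT db group (4 libraries). The ob/ob group (3 libraries) was homozygous for the Lepob allele on the B6.Cg-Lepob/J strain and so lacked leptin, and its lean littermates formed the CT ob group (3 libraries). The labels give the lean animals as wild type, whereas the libraries of CT db and CT ob carry the prefixes het and obHet in the table. That difference was not settled here. Each library held about 50 cells released by puncture of antral follicles. Whether a library joined several animals is not given in the sources used here, so p-values measure the spread between these libraries. Both alleles act in the whole animal, so a missing leptin signal in the GCs and obesity of the animal cannot be told apart. Model, strain and colony also change together between the db and ob groups.

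Cells build cholesterol from acetyl-CoA by way of mevalonate, isoprenoids, squalene and lanosterol. The transcription factor SREBP2, the product of Srebf2, switches the enzymes of this pathway on when membranes run short of sterol. SCAP escorts it from the endoplasmic reticulum to the Golgi, and the INSIG proteins hold it back. Surplus cholesterol is esterified by SOAT1 or passed by the ABC transporters to apolipoproteins such as APOA1 and APOE. In the ovary cholesterol is the starting material of progesterone and oestradiol. The avascular granulosa layer is known to take it up largely from high density lipoprotein through SCARB1.

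Promoter sequence from RefSeq (build GRCm38.p6) was at hand for 25 of the 32 genes and was searched over the 250 bases before each listed start. The CCAAT box, the site bound by NF-Y, was searched as CCAAT on both strands, and a sterol element of SREBP targets as TCACNCCAC on both strands. CCAAT was found in 14 of 15 synthesis genes, all but Acat2, against 37.5% of 27025 genes. It was found in 3 of 4 control genes, in Soat1, in 1 of 2 uptake genes and in 0 of 3 efflux genes. The sterol element was found in Hmgcs1 alone among the 25, against 1.22% of all genes. The liver X receptor direct repeat was found in 0 of the 25 and in 0.0148% of all genes. Such a match is a run of letters and not a measured site. Promoters of 4 synthesis genes are printed because the RNA of Hmgcs1 and Msmo1 varied together across libraries while that of Ebp and Sc5d did not, although all hold the box. They lie at chr13:119690101-119690350 on the plus strand, chr8:64733579-64733828 on the minus strand, chrX:8193513-8193762 on the minus strand and chr9:42264301-42264550 on the minus strand. Capitals mark CCAAT or its reverse complement, and in Hmgcs1 also the sterol element, 137 bases before the start.
Hmgcs1: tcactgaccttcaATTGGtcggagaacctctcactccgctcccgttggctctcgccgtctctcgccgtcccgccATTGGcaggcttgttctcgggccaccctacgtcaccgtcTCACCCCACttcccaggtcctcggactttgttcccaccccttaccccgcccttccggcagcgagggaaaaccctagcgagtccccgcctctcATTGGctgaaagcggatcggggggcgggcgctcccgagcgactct
Msmo1: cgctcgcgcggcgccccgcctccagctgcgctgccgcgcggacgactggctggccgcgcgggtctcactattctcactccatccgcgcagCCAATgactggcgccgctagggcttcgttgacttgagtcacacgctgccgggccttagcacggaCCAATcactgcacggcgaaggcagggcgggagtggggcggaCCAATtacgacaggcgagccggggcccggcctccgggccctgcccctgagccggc
Ebp: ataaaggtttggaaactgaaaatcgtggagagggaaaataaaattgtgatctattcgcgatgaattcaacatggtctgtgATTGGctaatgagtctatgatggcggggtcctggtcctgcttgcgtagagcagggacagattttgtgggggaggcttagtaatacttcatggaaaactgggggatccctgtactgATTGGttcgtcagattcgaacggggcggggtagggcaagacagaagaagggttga
Sc5d: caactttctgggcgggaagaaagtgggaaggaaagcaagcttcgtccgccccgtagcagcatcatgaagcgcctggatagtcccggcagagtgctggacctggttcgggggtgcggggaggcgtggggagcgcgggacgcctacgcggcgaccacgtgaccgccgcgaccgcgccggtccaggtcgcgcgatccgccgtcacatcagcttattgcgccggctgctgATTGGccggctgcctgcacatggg

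Total counts per library ran from 2204686 to 8367593, so that 3 counts correspond to between 0.382 and 1.26 CPM (counts scaled to a common library total by TMM factors). Counts are of reads without molecular identifiers, so they do not count independent molecules. Nuclear 18S ribosomal RNA took 1.1% to 24.5% of counts, with the highest share in the CT ob library obHet_68. All 12 granulosa markers were detected, with a summed level of 6145 to 16741 CPM. The 6 theca and interstitial markers summed to 716 CPM in the db/db library HOM_24 and to 79.1 to 200.0 CPM in the other libraries. The 8 macrophage markers summed to 2.94 to 27.5 CPM, the 6 endothelial markers to 3.18 to 37.9 CPM, the 6 luteal markers to 230.0 to 1220 CPM and the 8 oocyte markers to 2.6 to 1032 CPM. Of the 4 red blood cell markers none passed 3 counts in any library. Lepr had 0 to 17 counts a library and Lep 0 to 3, so neither can check the genotype labels. In pooled cells fewer cells of a type and less RNA per cell cannot be told apart.

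Compared per length of exon, the 32 genes ran from percentile 0.661 to percentile 97.7 of the genes kept. The most abundant was Apoa1 (ENSMUSG00000032083, chr9:46139878-46142212, plus strand), which encodes the main protein of high density lipoprotein, with a mean of 90.0 CPM per kilobase, followed by Soat1 (ENSMUSG00000026600, chr1:156252095-156303864, minus strand) with 57.9. The lead of Apoa1 came from the controls, with 166 CPM per kilobase in CT ob and 90.0 in CT db, beside 48.4 and 58.1 for Soat1. In the mutants Soat1 stood above it, at 65.6 against 61.5 CPM per kilobase in db/db and at 56.8 against 52.5 in ob/ob. The median of the 12555 genes kept over all libraries that have an exon length was 4.66 CPM per kilobase. Insig1 (ENSMUSG00000045294, chr5:28276315-28283668, plus strand) was at 37.6 CPM per kilobase and Scarb1 (ENSMUSG00000037936, chr5:125353547-125418176, minus strand) at 36.9, the highest of the control and of the uptake genes. Among the enzymes Msmo1 (ENSMUSG00000031604, chr8:65170603-65186830, minus strand), a demethylase of sterol C4, was at 27.0 CPM per kilobase and Hmgcs1 (ENSMUSG00000093930, chr13:120151915-120170470, plus strand), the cytosolic HMG-CoA synthase, at 26.6. The 7 early genes ranged from 2.78 (Fdps) to 26.6 and the 11 squalene and sterol genes from 1.64 (Tm7sf2) to 27.0 CPM per kilobase. The lowest of all was Abcg1 at 0.185 CPM per kilobase, with 0 to 22 counts a library. Its CPM was 0 in HOM_53 and obHOM_41 and 4.36 at most, so its level stands close to the limit that 3 counts allow. With the length of the longest transcript in place of all exons the ranks moved by up to 7 places, and Scarb1 then stood above Apoa1 at 122 against 102 CPM per kilobase.

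**Figure D1:**
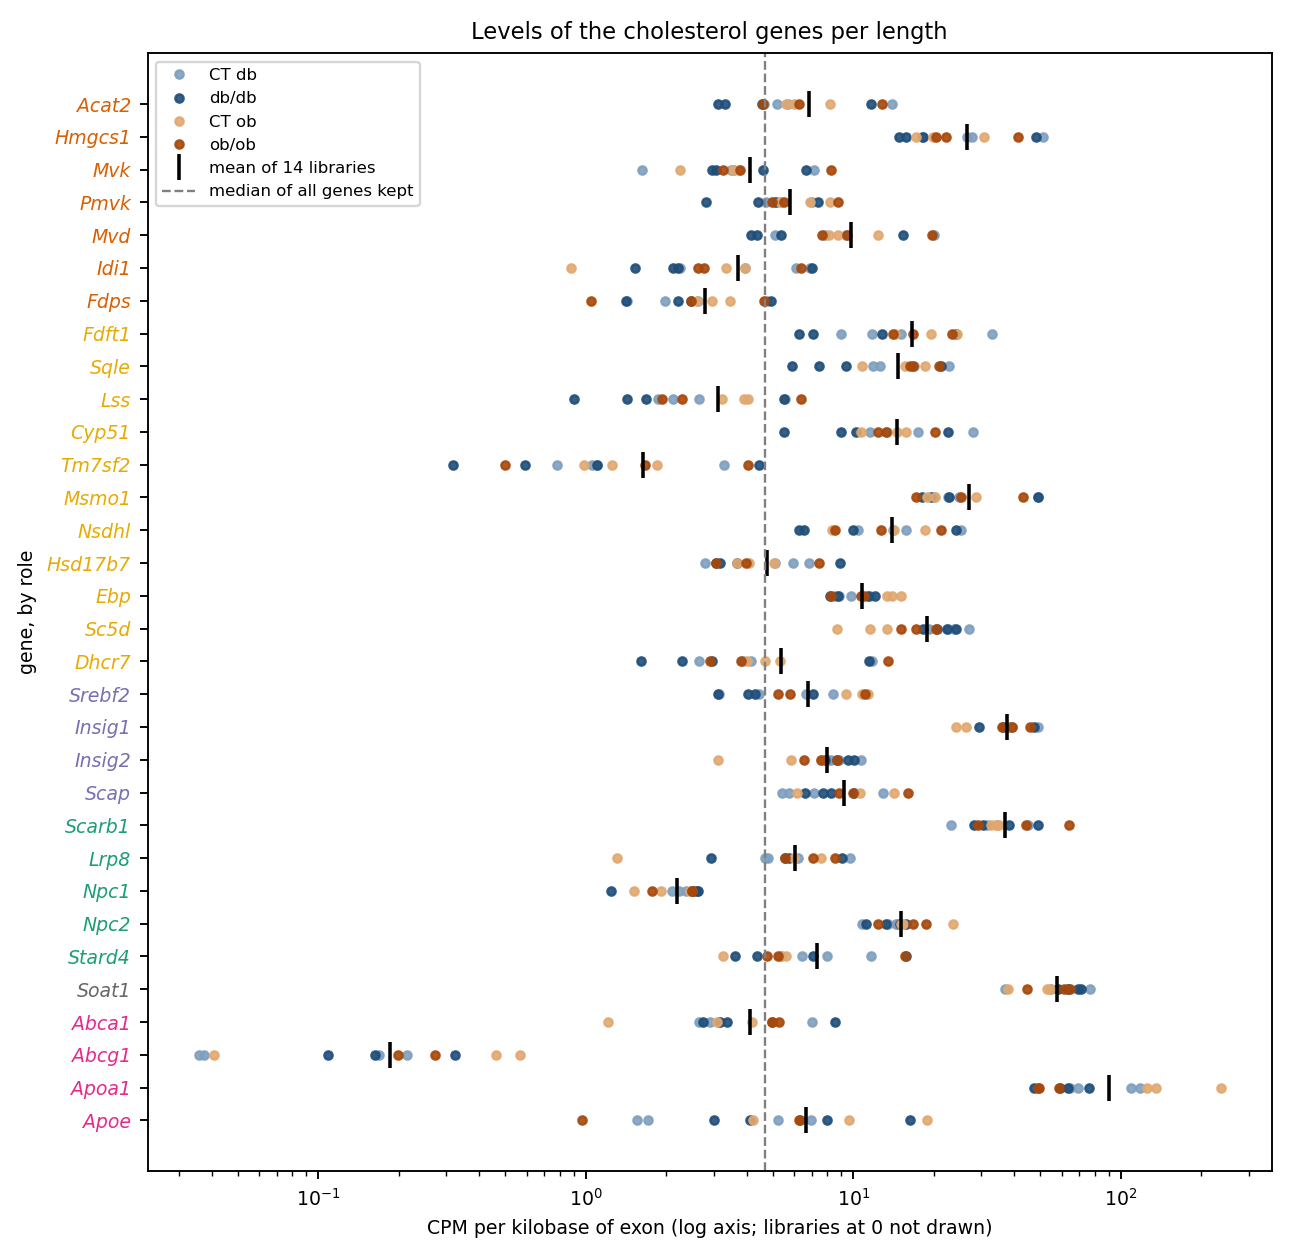
CPM per kilobase of exon (log axis) of the 32 genes in 14 libraries, with genes ordered by role and coloured points for the 4 groups. Black ticks are means over the libraries, and the dashed line is the median of all genes kept, 4.66. Apoa1, Soat1, Insig1 and Scarb1 stand at the right and Abcg1 alone far to the left.

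The widest variation of the synthesis genes lay between libraries of the same group. A single library in each of 3 groups stood apart, and these libraries were picked out after the values of these genes were seen. That the synthesis genes were highest there is partly set by this choice, so the shares below are description and no test. In the CT db library het_69 the 18 synthesis genes summed to 2014 CPM, against 1145, 880 and 1062 CPM in the other CT db libraries. In the db/db library HOM_68 the sum was 1876 CPM, against 879, 743 and 722 CPM. In the ob/ob library obHOM_41 it was 1772 CPM, against 915 and 1078 CPM. The CT ob libraries showed no such split, with sums of 1195, 1037 and 959 CPM. Each of the 3 libraries was therefore above every library outside this trio, whichever its genotype.

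The genes that shared this pattern were nearly the whole synthesis pathway. All 7 early genes (Acat2, Hmgcs1, Mvk, Pmvk, Mvd, Idi1, Fdps) and 9 of 11 later genes (Fdft1, Sqle, Lss, Cyp51, Tm7sf2, Msmo1, Nsdhl, Hsd17b7, Dhcr7) were highest of their group in het_69, in HOM_68 and in obHOM_41 alike. Over all 12586 genes kept, 646 (5.13%) were highest in all 3 libraries. Against the median of the other libraries of the same group, the 18 synthesis genes were at a median of 2.07 times in het_69, 2.95 times in HOM_68 and 2.08 times in obHOM_41, where the medians of all genes kept were 0.99, 0.992 and 0.975. Tm7sf2, a reductase of the sterol ring, stood at 3.11, 7.49 and 3.73 times, and Dhcr7, the reductase of 7-dehydrocholesterol, at 3.05, 5.0 and 3.99 times. Pmvk, the phosphomevalonate kinase, stood at 1.4, 1.66 and 1.67 times. Ebp, the sterol isomerase, stood at 1.1, 1.38 and 1.11 times, and Sc5d, the desaturase of the next step, at 1.05, 0.909 and 0.803 times.

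Outside synthesis the pattern was narrower. Srebf2, which encodes the activator of the pathway, was highest in all 3 libraries at 1.89, 1.76 and 2.01 times that median, and its escort Scap at 2.23, 1.31 and 1.7 times. The high density lipoprotein receptor Scarb1 stood at 1.42, 1.61 and 1.74 times. Stard4, a carrier of cholesterol within the cytosol, stood at 1.81, 3.61 and 3.11 times. Insig1, Insig2, Lrp8, Npc1, Npc2, Soat1 and the 4 efflux genes were not highest in all 3. In total 20 of the 32 genes shared the pattern and 0 were lowest in all 3 libraries, against 5.13% and 5.08% of all genes. Of 41 measured genes from a wider list of cholesterol genes 8 were highest in all 3 (Srebf1, Mbtps1, Vldlr, Abca7, Acly, Acss2, Aacs, Tspo) and 2 were lowest (Cyp27a1, Hilpda), or 19.5% and 4.88% of that list.

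**Figure D2:**
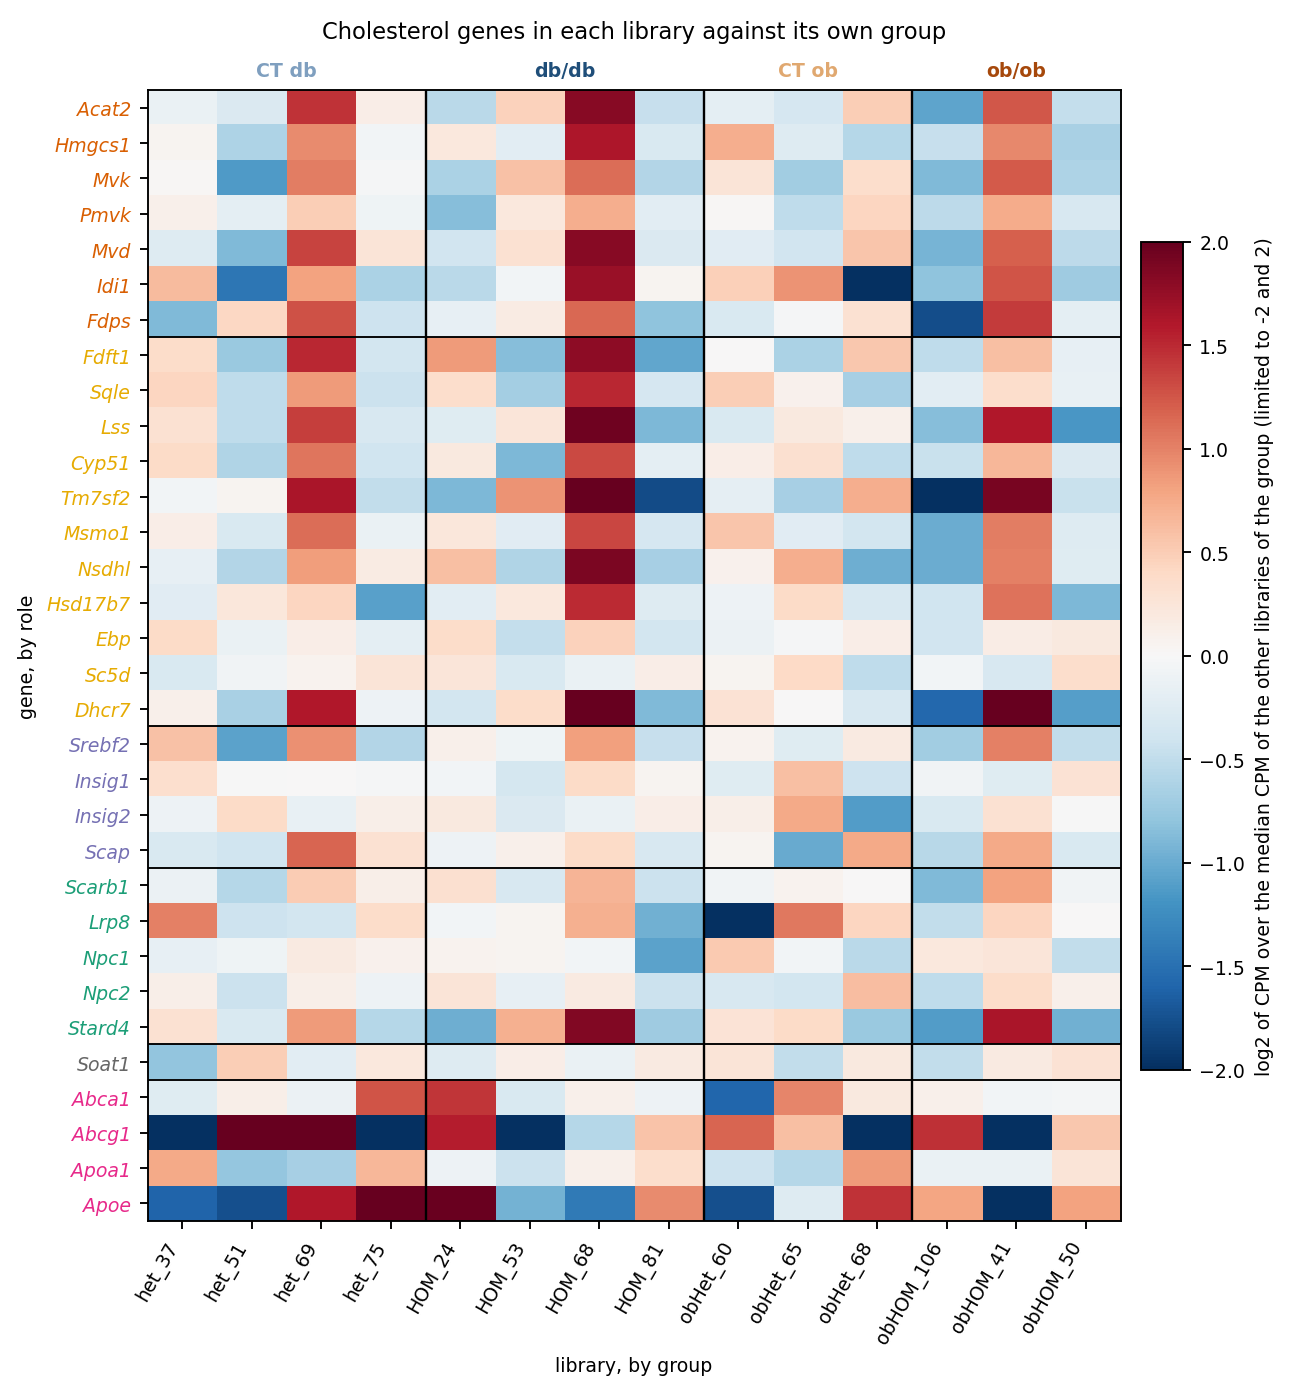
Each cell is the log2 of a gene's CPM in a library over the median of the other libraries of its group, limited to -2 and 2, for 32 genes by role (rows) and 14 libraries by group (columns). Red columns at het_69, HOM_68 and obHOM_41 run through the synthesis genes except Ebp and Sc5d, and no CT ob column does so.

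Some markers of granulosa cells moved with these libraries and others did not. The 12 granulosa markers summed to 13151 CPM in het_69, 13192 in HOM_68 and 16741 in obHOM_41, and to 6145 to 11917 CPM in the other 11 libraries. Cyp19a1, which encodes the aromatase that makes oestradiol, was at 106 CPM in het_69, 102 in HOM_68 and 84.2 in obHOM_41, and between 6.59 and 33.9 CPM in the other 11 libraries. Inhba, which encodes a subunit of inhibin A and activin A, was at 2547, 1990 and 1531 CPM, and between 24.8 and 756 CPM in the others. Of the 12 granulosa markers 3 were highest in all 3 libraries, namely Cyp19a1, Inhba and Inhbb, against 5.13% of all genes. Inha, the largest part of the marker sum, was highest of its group in het_69 and obHOM_41. In db/db it was higher in HOM_53 (6029 CPM) than in HOM_68 (5679 CPM). Amhr2, which encodes the receptor of anti-Müllerian hormone, was lowest of its group in het_69 (122 CPM) and obHOM_41 (102 CPM). Amh, the gene of that hormone, was lowest of its group in obHOM_41 (59.0 CPM) but not in het_69 (104 CPM) or HOM_68 (111 CPM). Lhcgr, the luteinizing hormone receptor gene counted here as a luteal marker, was lowest of its group in all 3, at 8.79, 1.26 and 1.25 CPM. The value in HOM_68 stood at the limit of 3 counts. Other luteal markers differed. Hsd3b1 (1024 CPM) and Akr1c18 (37.4 CPM) were highest of their group in het_69, and Akr1c18 also in HOM_68 (1.26 CPM, at the same limit). Prlr and Star were lowest of their group in HOM_68 and obHOM_41 but not in het_69. Cyp19a1, Inhba, Inha, Amh, Amhr2 and the luteal markers named here were singled out after their values were seen. The luteal marker sum was 1138, 304 and 242 CPM there and the theca sum 190, 93.8 and 87.6 CPM, both inside the range of all other libraries. Within its own group the luteal sum was highest in het_69 (others 238 to 561 CPM) and lowest in obHOM_41. The theca sum was lowest of its group in HOM_68 (others 126 to 716 CPM) and obHOM_41 (others 130 to 157 CPM) but not in het_69. The macrophage sum was also lowest of its group in HOM_68 (2.94 CPM) and obHOM_41 (3.07 CPM) but not in het_69. The counts of het_69, HOM_68 and obHOM_41 (3655759, 2228526 and 6907152) and their 18S shares (4.69%, 1.98% and 1.3%) lay inside the range of the other libraries. The part of these markers in the pattern was not tested.

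**Figure D3:**
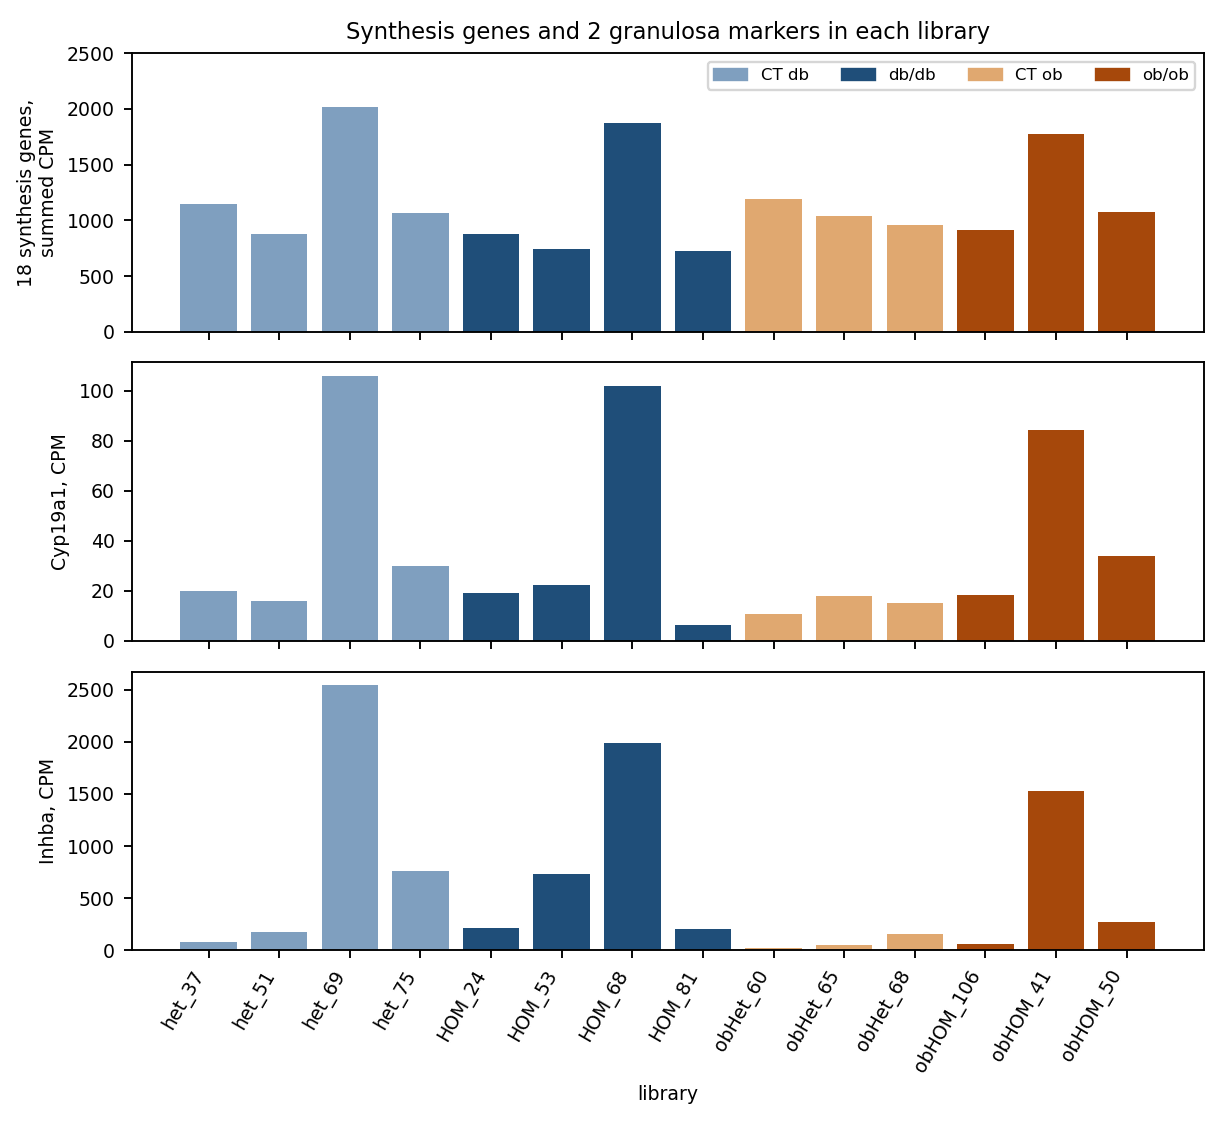
Bars give, for each of 14 libraries coloured by group, the summed CPM of the 18 synthesis genes (top), the CPM of Cyp19a1 (middle) and the CPM of Inhba (bottom), all from 0. The tallest 3 bars of each panel belong to het_69, HOM_68 and obHOM_41.

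The design asks in each model whether GCs of the obese mutant differ from those of lean littermates. In db/db against CT db, the quasi-likelihood test of edgeR (Benjamini-Hochberg adjusted p of at most 0.05) called 0 of the 31 cholesterol genes tested, against 0.00884% of 11317 genes. At an unadjusted p under 0.05 there was 1 member, against 7.59% of all genes, and DESeq2 also called 0, against 0.389%. With no filter on low counts edgeR called Apoe, against 0.947% of genes. Of the 18 synthesis genes 14 were lower and 4 higher in db/db, with a median log2 change of -0.29 beside 0.01 over all genes. Without het_69, HOM_68 and obHOM_41, a choice made after seeing the data, that median was -0.5. When single libraries were left out it ran from -0.96 (without HOM_68) to 0.08 (without het_69). Its size and sign therefore depended on whether het_69, HOM_68 or both were kept. No member's db/db and CT db libraries were free of overlap, against 4.43% of all genes.

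Within the pathway Hmgcs1 showed how wide the spread was. Its levels were 146, 95, 270.0 and 140.0 CPM in CT db and 95.9, 82.7, 253 and 77.8 CPM in db/db, with 270.0 in het_69 and 253 in HOM_68. The log2 change was -0.31 ± 0.4 (SE) with an adjusted p of 0.873 (edgeR), and the groups overlapped, also without those libraries, where 95.9 CPM in HOM_24 stood above 95 CPM in het_51. Sqle (ENSMUSG00000022351, chr15:59186869-59203043, plus strand), squalene epoxidase, was at 150, 105, 202 and 112 CPM in CT db and at 83.4, 52.2, 188 and 65.9 CPM in db/db. All db/db libraries but HOM_68 were below all CT db libraries, and the log2 change was -0.51 ± 0.358 (SE, adjusted p 0.755, edgeR). Msmo1 was at 220, 178, 437 and 201 CPM in CT db and at 203, 173, 435 and 160 CPM in db/db, a log2 change of -0.05 ± 0.355 (SE, adjusted p 0.98, edgeR). The interval of 2 SE reached from -0.76 to 0.66, so changes inside it were not detectable with 4 libraries a group.

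The intervals of Ebp, Sc5d and Insig1 were narrower than those of Hmgcs1, Sqle and Msmo1. Ebp (ENSMUSG00000031168, chrX:8050773-8059795, minus strand) was at 33.4 to 49.2 CPM in db/db and 34.7 to 47.1 CPM in CT db, with a log2 change of 0.1 and an interval of 2 SE from -0.25 to 0.46. Sc5d (ENSMUSG00000032018, chr9:42162891-42175605, minus strand) was at 112 to 148 and 118 to 166 CPM, with a log2 change of -0.08 and an interval from -0.37 to 0.22. Insig1, which restrains the pathway, was at 144 to 230.0 CPM in db/db and 188 to 240.0 CPM in CT db, a log2 change of -0.1 with an interval from -0.41 to 0.22. For these 3 genes a change of 2-fold lay outside the interval. Scarb1 stood at 392, 313, 505 and 290.0 CPM in db/db and 326, 239, 464 and 355 CPM in CT db, a log2 change of 0.16 ± 0.227 (SE, adjusted p 0.889, edgeR). Soat1, which esterifies cholesterol for storage in droplets, stood at 623, 742, 677 and 761 CPM in db/db and 394, 821, 587 and 681 CPM in CT db, a log2 change of 0.21 ± 0.202 (SE, adjusted p 0.822, edgeR). Both groups overlapped for either gene.

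The efflux genes gave the smallest p-values of the members in db/db. Apoa1 was at 101, 80.6, 108 and 130 CPM in db/db and at 201, 110.0, 118 and 186 CPM in CT db. Only the db/db library at 130 CPM reached above the lower CT db libraries, and the log2 change was -0.5 ± 0.213 (SE, p 0.0362, adjusted p 0.632, edgeR). Apoe (ENSMUSG00000002985, chr7:19430034-19434947, minus strand), which encodes an apolipoprotein that accepts cholesterol from ABCA1, was at 65.9, 16.7, 12.2 and 32.3 CPM in db/db. In CT db it was at 6.94, 6.28, 21.1 and 28.1 CPM. Its log2 change was 1.07 ± 0.564 (SE, adjusted p 0.682, edgeR) with overlapping groups, and without HOM_24 and obHet_65, chosen after seeing the data, it was 0.44. HOM_24, the library with the highest theca marker sum (716 CPM) and with 250 CPM of the theca enzyme Cyp17a1, also held the highest Apoe and Abca1 (105 CPM) of its group. The part of other cell types in these values was not tested. Abca1, the exporter of cholesterol to APOA1, was otherwise at 33.8 to 41.6 CPM in db/db and at 32.7 to 85.8 CPM in CT db.

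In ob/ob against CT ob, edgeR's quasi-likelihood test called 0 of 32 members, against 0.0% of 12425 genes. At an unadjusted p under 0.05 there were 3 (Apoa1, Sc5d, Ebp), against 8.16% of all genes, and DESeq2 called Apoa1 alone, against 0.692% of all genes. With no filter on low counts edgeR called Apoa1 and Apoe, against 1.12% of genes. Of the 18 synthesis genes 13 were higher and 5 lower in ob/ob, with a median log2 change of 0.21 beside -0.04 over all genes. Without het_69, HOM_68 and obHOM_41 the median was -0.34, so the sign of this median rested on obHOM_41. The libraries of the groups did not overlap for 4 members (Sc5d and Abca1 higher, Ebp and Apoa1 lower), against 15.1% of all genes (9.06% higher and 6.0% lower). Both this share and that at an unadjusted p under 0.05 were near the share of all genes.

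Apoa1 showed the widest gap between ob/ob and CT ob. It was at 84.4, 84.1 and 100.0 CPM in ob/ob and at 232, 214 and 403 CPM in CT ob, and every ob/ob library lay under every CT ob library. The log2 change was -1.74 ± 0.305 (SE, p 0.000402), a level of 0.3 times that of CT ob, with an adjusted p of 0.539 by edgeR and of 0.000123 by DESeq2. The highest value came from obHet_68, the library with 24.5% of 18S counts, and without it the log2 change was -1.31 (adjusted p 0.227, edgeR). Sc5d was at 105, 92.3 and 125 CPM in ob/ob and at 70.6, 82.1 and 53.5 CPM in CT ob, a log2 change of 0.6 ± 0.198 (SE, adjusted p 0.561, edgeR). Ebp was at 33.7, 43.6 and 44.6 CPM in ob/ob and at 54.3, 56.9 and 61.3 CPM in CT ob, a log2 change of -0.55 ± 0.202 (SE, adjusted p 0.573, edgeR). For both genes the groups did not overlap, in opposite directions, and neither gene passed the test.

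Hmgcs1, Msmo1 and Sqle, which varied between libraries, did not pass the test here either. Hmgcs1 was at 117, 218 and 107 CPM in ob/ob and at 162, 105 and 90.4 CPM in CT ob, a log2 change of 0.27 that became -0.13 without obHOM_41. Msmo1 was at 153, 383 and 224 CPM in ob/ob and at 255, 180.0 and 168 CPM in CT ob, a log2 change of 0.3 that became -0.14 without obHOM_41. Sqle was at 144, 185 and 148 CPM in ob/ob and at 165, 138 and 95.4 CPM in CT ob, a log2 change of 0.23 with an interval of 2 SE from -0.2 to 0.65. All 3 overlapped between the groups.

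Of the genes of control, uptake and storage none passed the test in ob/ob. Insig1 was at 191, 176 and 223 CPM in ob/ob and at 129, 187 and 118 CPM in CT ob, a log2 change of 0.4 ± 0.211 (SE, adjusted p 0.66, edgeR). Scarb1 was at 301, 657 and 456 CPM in ob/ob, against 338, 360.0 and 352 CPM in CT ob, a log2 change of 0.38 ± 0.284 (SE, adjusted p 0.737, edgeR). The ob/ob libraries lay on both sides of the narrow CT ob range. Soat1 was at 475, 656 and 688 CPM in ob/ob and at 579, 405 and 565 CPM in CT ob, a log2 change of 0.18 ± 0.239 (SE, adjusted p 0.858, edgeR). Apoe was at 25.4, 3.9 and 25.6 CPM in ob/ob and at 17.0, 39.1 and 76.3 CPM in CT ob, a log2 change of -1.36 ± 0.732 (SE, adjusted p 0.668, edgeR) with overlapping groups. Its highest value came from obHet_68, the library with 24.5% of 18S counts, and the log2 change was -0.61 without that library and -0.88 without obHOM_41, which held the lowest value. Abca1 was at 65.1, 60.8 and 61.0 CPM in ob/ob and at 14.9, 51.6 and 37.9 CPM in CT ob, without overlap, with a log2 change of 0.79 ± 0.399 (SE, adjusted p 0.652, edgeR).

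**Figure D4:**
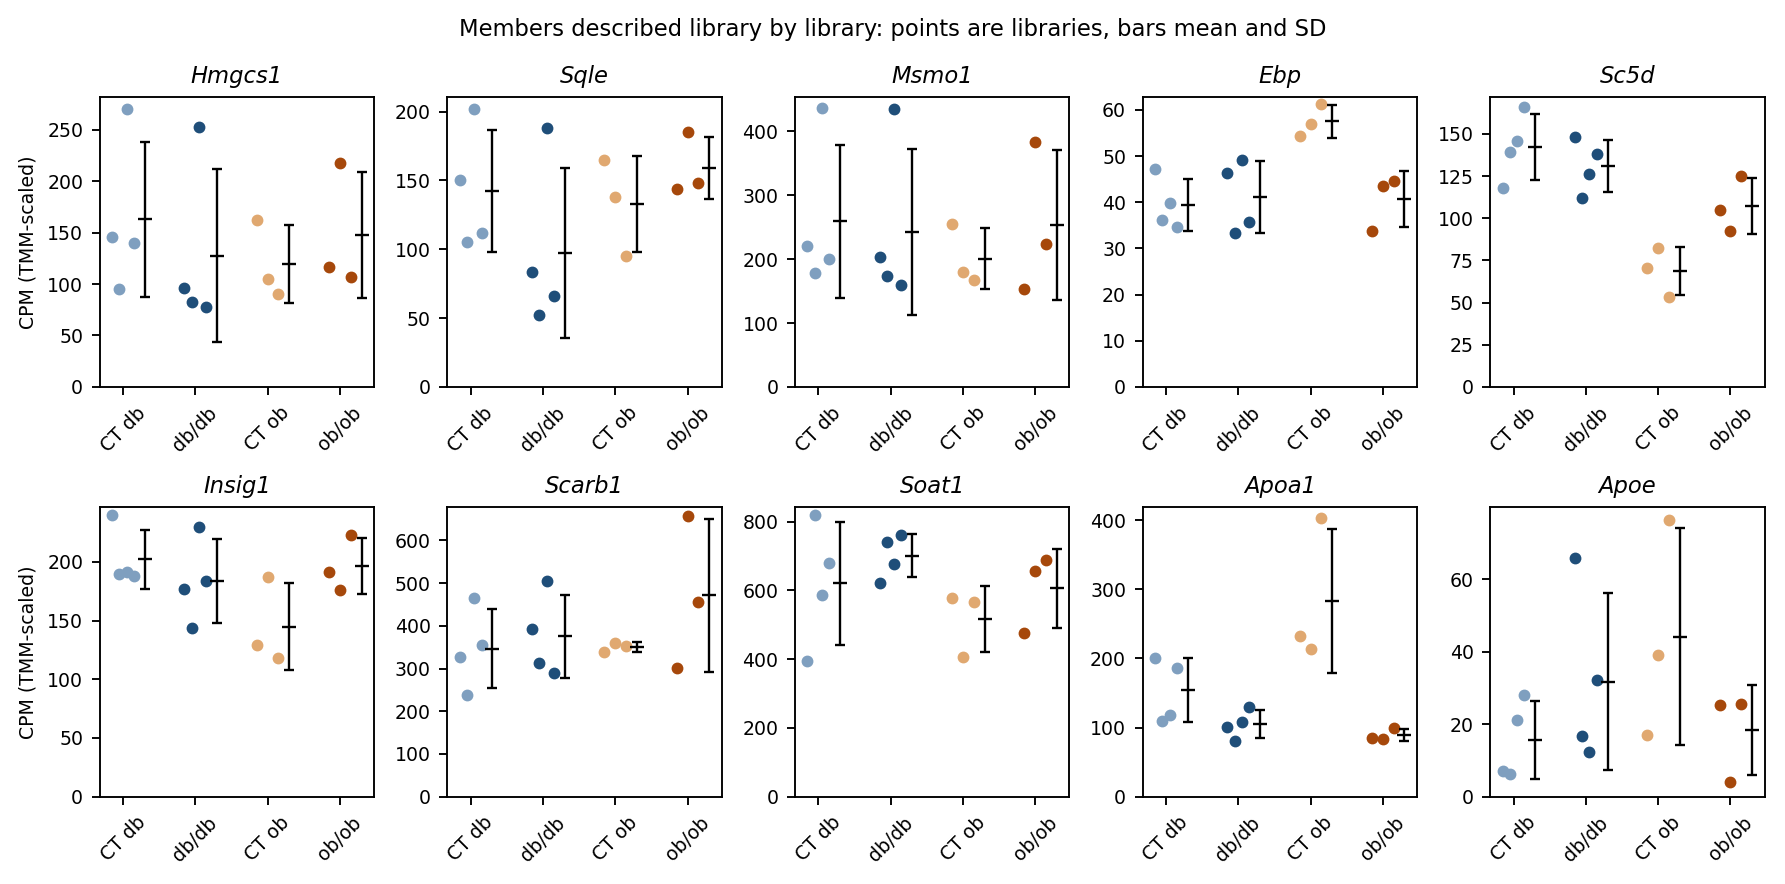
CPM (TMM-scaled, axis from 0) of 10 members in each of 14 libraries, with points for libraries and black bars for the mean and SD of each group. A single high point stands above the rest in CT db, db/db and ob/ob for Hmgcs1 and Msmo1, while Apoa1 is highest in CT ob and Sc5d lowest there.

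The effect of the mutation was compared between the models by the interaction of model and genotype in 1 fit of all 14 libraries. edgeR's quasi-likelihood test called 0 of 31 members, against 0.0% of 12586 genes, and DESeq2 called 0, against 0.572% of all genes, while with no filter on low counts edgeR called Apoa1 and Apoe, against 0.947%. At an unadjusted p under 0.05 there were 4 members (Apoa1, Apoe, Sc5d, Ebp), against 8.11% of all genes. The effect on Apoa1 was lower in the ob model by a log2 difference of -1.23 ± 0.38 (SE, adjusted p 0.426, edgeR). For Apoe the difference was -2.42 ± 1.02 (SE, adjusted p 0.571), for Sc5d 0.68 ± 0.235 (SE, adjusted p 0.508) and for Ebp -0.66 ± 0.257 (SE, adjusted p 0.556), all by edgeR. None of these differences passed the test. In ob/ob against db/db edgeR also called 0 of 31 members, against 0.0159% of 12586 genes, with 0 at an unadjusted p under 0.05 (8.18% of all genes), 0 by DESeq2 (0.572%) and 0 without overlap (10.2%). With no filter on low counts edgeR called Sqle, against 1.54%. The mean of Apoa1 was 89.6 CPM (SD 9.26, n = 3) in the ob/ob libraries, beside 105 CPM (SD 20.2, n = 4) for db/db.

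Between the lean controls of both models 2 members passed the test, a share near that of all genes. In CT ob against CT db, edgeR's quasi-likelihood test called 2 of 31 members, 1 higher and 1 lower, against 6.63% of 12586 genes (2.24% higher and 4.39% lower). At an unadjusted p under 0.05 there were 8 members, against 26.9% of all genes, and DESeq2 called 4, against 12.4%. With no filter on low counts edgeR also called 4 (Sc5d, Srebf2, Apoa1 and Apoe), against 4.97%. Sc5d, the sterol desaturase that makes 7-dehydrocholesterol, was lower in CT ob, at 70.6, 82.1 and 53.5 CPM against 118, 139, 146 and 166 CPM in CT db. The libraries did not overlap, and the log2 change was -1.02 ± 0.171 (SE, adjusted p 0.009, edgeR), a level of 0.493 times. Sc5d passed the test under every setting tried and without each single library. Apoa1 was higher in CT ob, at 232, 214 and 403 CPM against 201, 110.0, 118 and 186 CPM, also without overlap, with a log2 change of 0.94 ± 0.264 (SE, adjusted p 0.046, edgeR). This call was near the threshold and was lost with library totals alone and without any of 11 of the 14 single libraries. Without obHet_68 the log2 change was 0.51 (adjusted p 0.24, edgeR).

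Other members stood on the edge of the same comparison. Ebp was higher in CT ob by 0.59 ± 0.18 on the log2 scale (SE, adjusted p 0.0611) and Insig2 lower, with a log2 change of -0.68 ± 0.219 (SE, adjusted p 0.0713), by edgeR, and DESeq2 called both (adjusted p 0.0322 and 0.0371). Srebf2 was at 101, 87.4 and 106 CPM in CT ob and at 62.2, 29.4, 78.5 and 41.5 CPM in CT db, without overlap, with a log2 change of 0.94 ± 0.343 (SE, adjusted p 0.101, edgeR). Insig1 and Npc2 did not overlap either, with log2 changes of -0.45 (adjusted p 0.133) and 0.49 (adjusted p 0.166) by edgeR. Of the 31 members tested 7 had control groups that did not overlap, 4 higher and 3 lower in CT ob. That share was near the 20.2% of all genes (8.8% higher and 11.4% lower). The 18 synthesis genes had a median log2 change of -0.2 beside 0.06 over all genes, and of 0.27 without het_69, HOM_68 and obHOM_41. The mitochondrial share of counts was lower in the CT ob libraries (4.47%, 4.86% and 3.25%) than in all others (5.36% to 9.7%). It therefore moved with the Sc5d and Apoa1 values of CT ob, and its part in them was not tested. Strain, colony and model change together between the controls and cannot be told apart. The controls enter each mutant comparison and the interaction. The CT ob values of Sc5d, Apoa1 and Ebp here are therefore the same ones that stood apart from ob/ob. For Ebp every CT ob library lay above every library of the other groups.

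**Figure D5:**
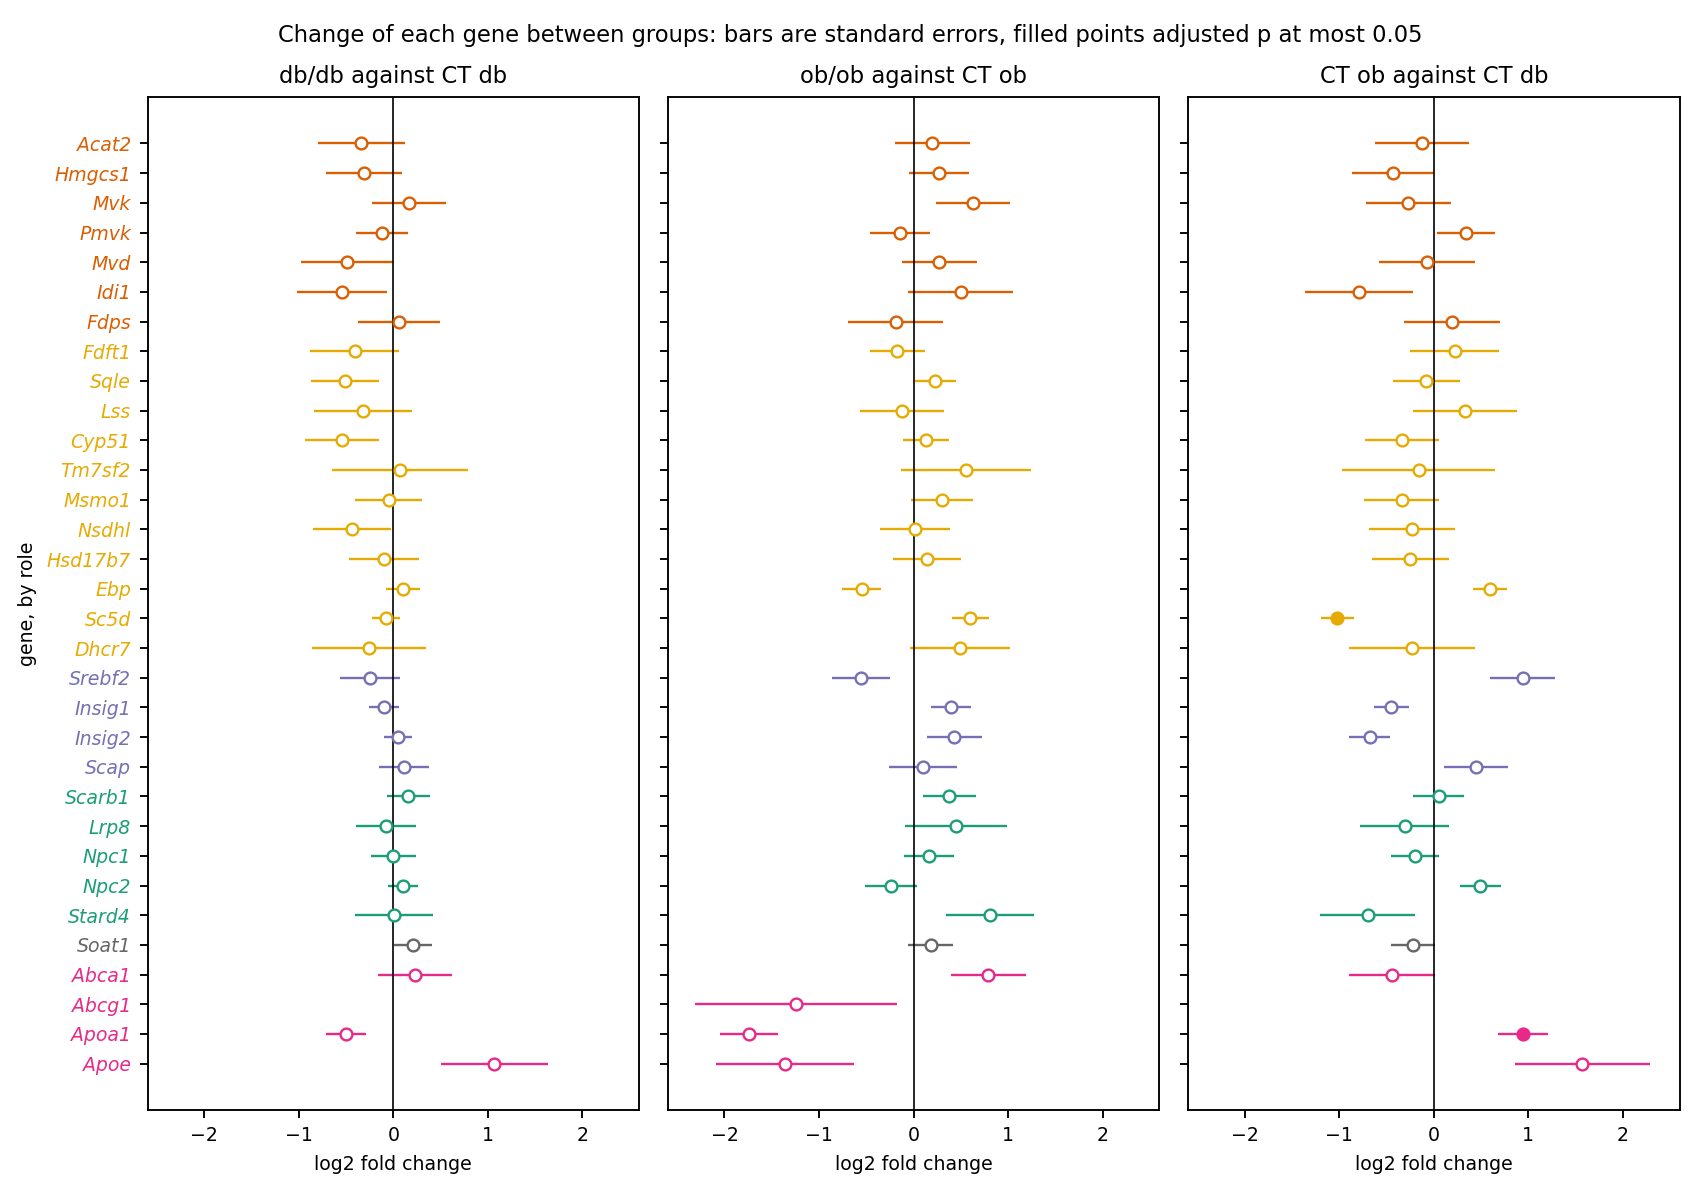
Log2 fold change (horizontal axis) of each gene, ordered by role, in db/db against CT db, ob/ob against CT ob and CT ob against CT db, with bars for the standard error. Filled points have an adjusted p of at most 0.05, which holds for Sc5d and Apoa1 in the third panel, and Abcg1 was tested in the ob model only.

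The members not given library by library filled in the same ranges. Over all 14 libraries the early enzymes Acat2 (acetoacetyl-CoA thiolase), Mvk (mevalonate kinase), Pmvk and Mvd (mevalonate diphosphate decarboxylase) lay at 18.3 to 82.1, 18 to 91.5, 10.8 to 33.5 and 11.3 to 54.4 CPM. Idi1 and Fdps, which make the isoprenoid units and join them, lay at 3.13 to 24.8 and 5.09 to 24.0 CPM. Fdft1 (squalene synthase), Lss (lanosterol synthase) and Cyp51 (lanosterol demethylase) lay at 29.8 to 158, 10.3 to 72.8 and 32.6 to 167 CPM. Among the sterol enzymes Tm7sf2 lay at 1.57 to 21.9, Nsdhl at 23.2 to 92.8, Hsd17b7 at 14.3 to 45.8 and Dhcr7, whose product is cholesterol itself, at 13.2 to 110.0 CPM. The highest value of each of these 13 genes came from het_69, HOM_68 or obHOM_41. Insig2 lay at 18.5 to 63.4 CPM and Scap at 69.0 to 204 CPM. The lipoprotein receptor Lrp8 lay at 17.0 to 126 CPM, the lysosomal exporters Npc1 and Npc2 at 14.1 to 30.0 and 66.0 to 144 CPM, and Stard4 at 20 to 96.3 CPM. Ebp varied least of the 31 genes with counts in every library, its highest library at 1.84 times its lowest, followed by Insig1 at 2.03 times and Soat1 at 2.08 times.

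A wider list of 47 cholesterol genes gave 41 with enough counts over all libraries. The other 6 (Soat2, Abcg4, Apoc1, Ch25h, Idi2, Lcat) stayed under 3 CPM in all libraries. In db/db edgeR called 0 of 40 tested (5 at an unadjusted p under 0.05, against 7.59% of all genes, and 0 by DESeq2, against 0.389%). In ob/ob it called 0 of 41 (5 at an unadjusted p under 0.05, against 8.16%, and 1 by DESeq2, against 0.692%). The smallest p-values in db/db belonged to Lima1, Gramd1c and Lrp1. Gramd1c, a carrier of cholesterol between plasma membrane and endoplasmic reticulum, was at 3.75, 3.76, 4.2 and 3.14 CPM in db/db and at 8.67, 9.96, 4.67 and 4.68 CPM in CT db, without overlap (log2 change -0.88, adjusted p 0.621, edgeR). Lima1 and Lrp1, an endocytic receptor, were higher by 0.67 (adjusted p 0.597) and 0.49 (adjusted p 0.632) on the log2 scale. In ob/ob the smallest were Nceh1, Rnf139 and Star. Nceh1, a hydrolase of stored cholesterol esters, was at 139, 105 and 104 CPM in ob/ob and at 59.1, 52.8 and 64.8 CPM in CT ob, without overlap (log2 change 0.92, adjusted p 0.539 by edgeR and 0.0361 by DESeq2). Rnf139 had a log2 change of 0.75 (adjusted p 0.561) and Star, which carries cholesterol into mitochondria for steroid synthesis, of -1.74 (adjusted p 0.561) by edgeR.

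Between the controls 5 of 41 wider genes passed the test, against 6.63% of all genes. Rnf139, a ubiquitin ligase of the endoplasmic reticulum, was lower in CT ob, at 43.4, 52.1 and 28.2 CPM against 81.8, 123, 116 and 131 CPM (log2 change -1.43 ± 0.217 SE, adjusted p 0.00558, edgeR). Nceh1 was also lower (log2 change -1.04, adjusted p 0.0346, edgeR). For Rnf139 and Nceh1 every CT ob library lay under every library of the other groups. The same CT ob values entered their comparison with ob/ob and their interaction. Stard3, a late endosomal cholesterol carrier, was higher by 1.05 (adjusted p 0.0332) and Acss2, an acetyl-CoA synthetase, by 1.25 (adjusted p 0.0456) on the log2 scale. In ob/ob against db/db the smallest p-values belonged to Nr1h3, Mylip and Nceh1, with adjusted p of 0.348, 0.397 and 0.437 by edgeR. Nr1h3, the liver X receptor alpha, stood close to the limit of 3 counts, at 0.637 to 3.16 CPM in ob/ob and at 0.417 CPM or 0 in db/db. Mylip, the ligase that marks lipoprotein receptors for decay, was at 4.39, 5.16 and 5.22 CPM in ob/ob and at 12.9, 10.4, 5.89 and 9.72 CPM in db/db. For the interaction the smallest were Rnf139, Star and Vldlr. Rnf139 had a difference of 1.16 (adjusted p 0.276 by edgeR and 0.0494 by DESeq2), and Vldlr, a lipoprotein receptor at 184 CPM in obHOM_41 and 24.5 and 24.6 CPM in the other ob/ob libraries, had a difference of 2.39 (adjusted p 0.556, edgeR).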

How the data were processed

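Raw counts per gene were deposited by the authors for 14 libraries, as whole numbers with no normalisation. Per the methods of the study, mRNA was captured with oligo-dT beads, amplified and read as single reads, which were trimmed with cutadapt, mapped to GRCm39 with STAR and counted with featureCounts, whereas the submitters' processing notes name Trim Galore (0.6.2), HISAT2 (2.1.0) and GRCm38. Which of these made the table, the strand setting and the treatment of reads with several matches are not given in the sources used here, so members that share reads with copies or antisense genes are uncertain. Libraries were assigned to groups by the headings of the table, which carry no replicate numbers. Identifiers were matched to GENCODE vM39 (GRCm39, 98.8% of 55414), which gave positions and exon lengths, while promoters are RefSeq sequence of GRCm38.p6.

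From the counts, genes were kept by filterByExpr of edgeR (4.0.16; at least 10 counts), scaled by TMM and tested with edgeR's quasi-likelihood test (Benjamini-Hochberg adjustment over all genes kept, threshold 0.05). Each mutant was tested within its own model, and the control, mutant and interaction contrasts came from 1 fit of all 14 libraries. Standard errors were taken from the F statistic. DESeq2 (1.42.0) under R (4.3.3), RLE scaling, library totals, other filters, a robust fit and omission of each library were alternatives. The 2 sets of libraries left out together were chosen after seeing the data. The code was tested on simulated data. No identical libraries were found. Members, the wider list, markers and motifs were chosen with earlier results of these data known, and given library by library are the members called in any comparison, the 3 with the smallest p in each mutant comparison and the most abundant of each role, with Abca1 and Srebf2 added after their values were seen. Of the wider list the 3 with the smallest p in each comparison are named, and Acss2, which was called between the controls, was added after its values were seen; a further gene called there is not reported here. Exact permutation tests (two-sided) on CPM served as a second test of these members.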

Additional observations from a re-analysis of the deposited data

Results flagged for a closer look

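In the 2 groups of 4 libraries, 16 values of members stood so far from the other 3 libraries of their group that the gap to the nearest library took up nearly the whole range of the group. Such a gap arises by chance in about 1 in 20 groups, and it was seen in 6.06% of 12586 genes in CT db and in 5.86% in db/db, beside 6 and 10 of the 32 members. Groups of 3 libraries were not examined in this way. The high value came from the CT db library het_69 for Acat2 at 82.1 CPM (others 27.3 to 33.3), Tm7sf2 at 16.2 CPM (others 3.85 to 5.41), Msmo1 at 437 CPM (others 178 to 220.0), Dhcr7 at 96.4 CPM (others 21.6 to 33.8). It came from the db/db library HOM_68 for the early enzymes Acat2 at 68.5 CPM (others 18.3 to 26.7), Hmgcs1 at 253 CPM (others 77.8 to 95.9), Mvd at 42 CPM (others 11.3 to 14.6), Idi1 at 24.8 CPM (others 5.42 to 7.84) and for the sterol enzymes Lss at 62.7 CPM (others 10.3 to 19.2), Msmo1 at 435 CPM (others 160.0 to 203), Hsd17b7 at 45.8 CPM (others 15.7 to 18.8), Dhcr7 at 93.8 CPM (others 13.2 to 24.2). Outside synthesis, Insig1 was at 240.0 CPM in the CT db library het_37 (others 188 to 191). Abca1 was at 85.8 CPM in the CT db library het_75 (others 32.7 to 38.7) and at 105 CPM in the db/db library HOM_24 (others 33.8 to 41.6). Npc1 was the only low value, at 14.1 CPM in the db/db library HOM_81 (others 28.6 to 30). All 12 values from het_69 and HOM_68 belong to synthesis genes. These genes varied together, and both libraries had been picked out after the values of these genes were seen. The 12 values are therefore not independent of each other, and the counts beside the share of all genes are description and no test.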

How the results depend on the processing

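The number of members called was stable at 0 in both mutant comparisons when single libraries were left out. Between the controls it ranged from 1 to 3 when single libraries were left out, and was 1 with library totals alone and 4 with DESeq2 (Sc5d, Apoa1, Ebp and Insig2). With no filter on low counts edgeR called 1 member in db/db (Apoe), 2 in ob/ob (Apoa1, Apoe), 4 in CT ob against CT db, 1 in ob/ob against db/db and 2 for the interaction, whereas DESeq2 called 1 in ob/ob (Apoa1). The Apoa1 call between the controls was lost with library totals alone (adjusted p 0.0533), without the libraries HOM_68, het_69 and obHOM_41 (adjusted p 0.139) and without 11 of the 14 single libraries, with a log2 change from 0.51 to 1.13. Every call rests on 3 or 4 libraries a group.

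The median log2 change of all synthesis genes moved from 0.21 to -0.34 in ob/ob and from -0.2 to 0.27 between the controls without HOM_68, het_69 and obHOM_41. When single libraries were left out, it lay between -0.96 and 0.08 in db/db, between -0.34 and 0.38 in ob/ob and between -0.3 and 0.29 between the controls, and the median of the sterol genes in db/db lay between -1.05 and 0.1. Single members close to 0 changed sign. In db/db against CT db the log2 change of Msmo1 was 0.01 with library totals alone, 0.02 without HOM_24 and obHet_65 and -0.5 to 0.32 without single libraries. Without single libraries Hmgcs1 ranged from -0.89 to 0.04, Insig1 from -0.23 to 0.0, Sc5d from -0.16 to 0.01 and Scarb1 from -0.02 to 0.33. In ob/ob against CT ob, Hmgcs1 was -0.13 and Msmo1 -0.14 without HOM_68, het_69 and obHOM_41, and without single libraries they ranged from -0.13 to 0.52 and from -0.14 to 0.56. The cause of these shifts was not tested. In the exact permutation test on CPM, the smallest p was 0.0286, the least that 3 against 4 libraries can give (0.1 for 3 against 3), for Sc5d, Apoa1, Ebp and Insig1 between the controls, and the adjusted p over 40 tests was 0.286. On the log2(CPM + 1) scale p became 0.0571 for Ebp and Apoa1.

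No paired analysis was possible because the columns of the table carry no replicate numbers of the labels.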
